A study of Gallus gallus with 6 samples.

Results

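The 65 genes described here encode proteins of the cytosolic ribosome, and they were chosen by name alone: every gene whose single symbol in the array's annotation is that of a large-subunit protein (RPL or RPLP), a small-subunit protein (RPS) or RPSA was taken, and S6 kinase names were left out. They carry 138 of the 37690 probe sets of the array and are 65 of 13008 named genes. Of them 43 belong to the large subunit, with 92 probe sets, and 22 to the small subunit, with 46.

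Expression was measured in chick (Gallus gallus) epiblast after exposure to grafted head mesoderm. The grafts came from the side of the head at stage HH6 and were placed in hosts of stage HH4-, in the area opaca, a rim of tissue outside the embryo proper, and were taken off 12 hours later. The 3 induced samples are the epiblast that had lain under the graft, and the 3 control samples are the area opaca from the opposite side, which received no graft. Each sample, numbered as a biological repeat, gave total RNA for 1 Affymetrix array. The sources used here do not give how many embryos a sample holds or whether the same number means the same host, so that p-values speak only of the spread among these samples.

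A ribosome is built from ribosomal RNA and one copy of most of its proteins, the small subunit decoding the messenger and the large subunit forming the peptide bond. The messengers of nearly all ribosomal proteins begin with a terminal oligopyrimidine tract (TOP), through which growth signals acting on mTOR control their translation, while their transcription rises with that of ribosomal RNA when cells grow, for example under MYC. They are among the most abundant messengers of an embryonic cell. The study looked for transcripts that respond while mesoderm induces progenitors of the sensory placodes, and here the question is put to the machinery of protein synthesis.

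Values below are MAS5 signals, brought to a common distribution over the arrays and given as log2(signal + 16), unless a sentence speaks of deposited signals. The median deposited signal of an array was 7.5 to 9.6 units in repeats 2 and 3 and 17.7 and 18.35 in repeat 1 of the controls and the induced samples, so both arrays of repeat 1 were the bright ones. Precision is limited by the number of arrays. In the same arrays all 7 measured preplacodal genes had a log2 fold change above 0 (median 1.14). EYA2, a co-factor of that region, rose by 2.46 (SE 0.304, limma adjusted p = 0.0115 over genes). All 14 measured genes of blood and endothelium were below 0 (median -1.05), as were 15 of 18 of yolk sac endoderm (median -0.65). Of the epiblast genes 8 of 9 were above 0, and of all 10118 genes 5381 were. In these bulk samples fewer cells of a type and less RNA per cell cannot be told apart.

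No ribosomal protein gene passed the test between induced epiblast and control. Of the 138 probe sets, 132 passed the filter on low signal, every gene keeping at least 1, and 0 of the 132 passed an adjusted p of 0.05 by limma over all 22614 probe sets, the lowest being 0.385. Over all probe sets 0.0973% passed. The median log2 fold change of the 132 was 0.0072, against 0.0092 over all probe sets tested, and 73 lay above 0 and 59 below. At an unadjusted p under 0.05, 2 members were higher and 0 lower, a share of 1.52% against 9.76% of all probe sets. Groups without overlap were seen in 7 members, or 5.3%, against 14.4% of all probe sets. The induced values were the higher ones in probe sets of RPL15, RPLP1 and RPS12 and the lower ones in probe sets of RPL21, RPL36, RPLP2 and RPS14. Those of RPS12, RPL21 and RPS14 are probe sets of low signal, and the probe set of RPS14 with high signal had 0.063 and overlapped. Taking each gene by its brightest probe set, 0 of 65 passed over 10118 genes, where 0.376% did, and the lowest adjusted p was 0.316.

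**Figure D1:**
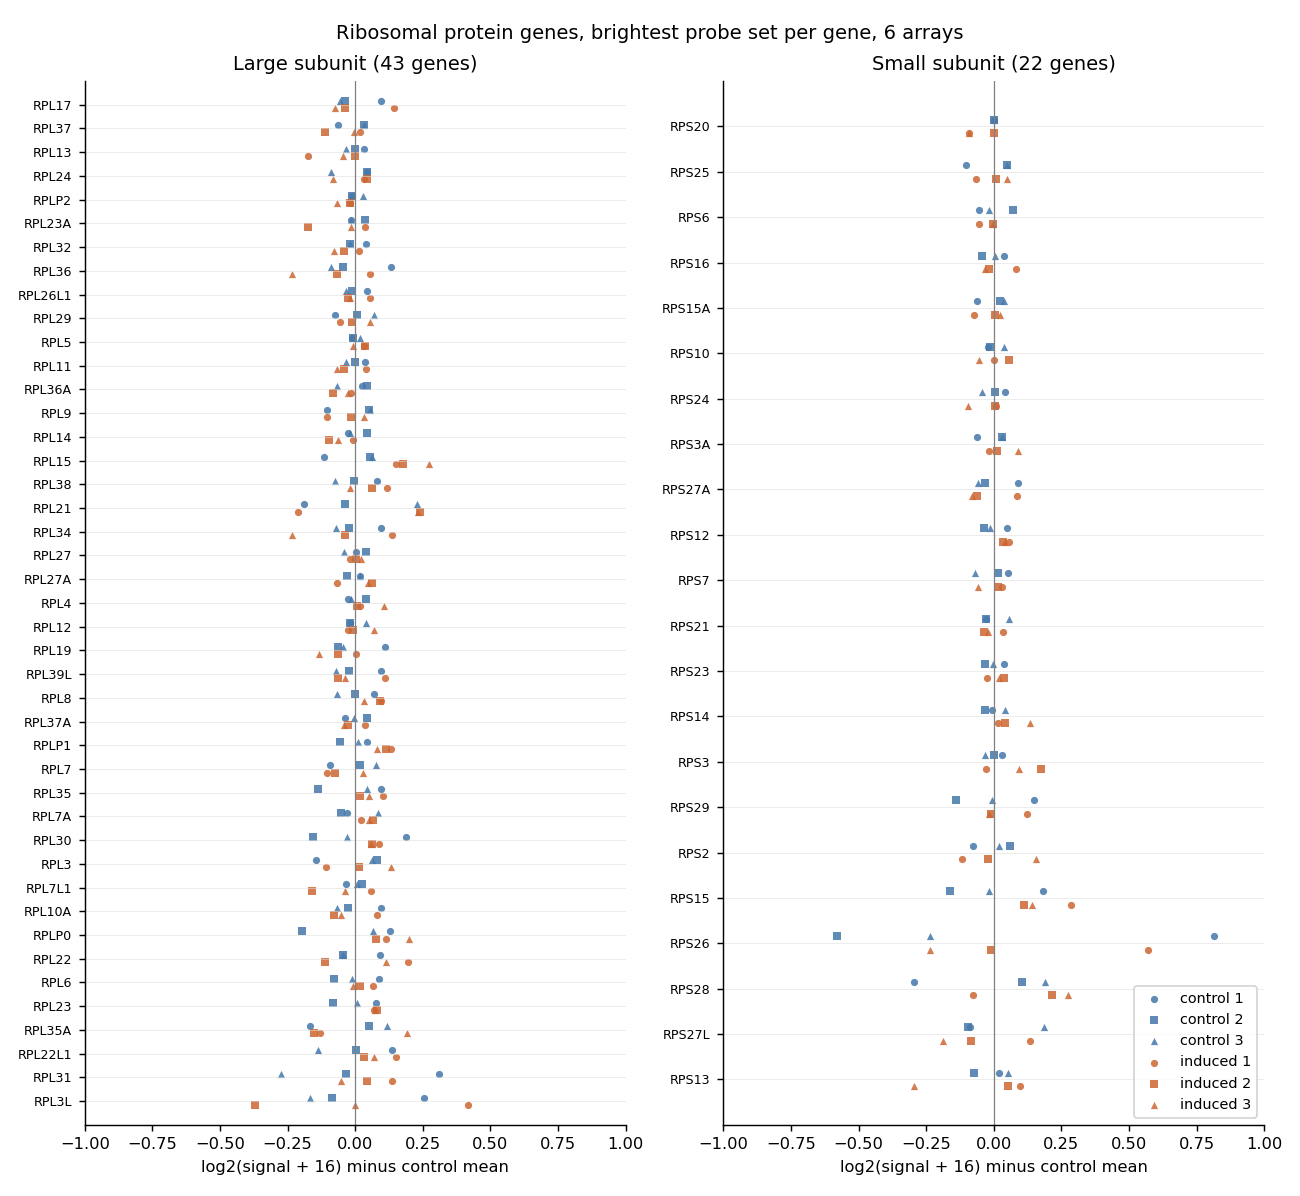
Value of each array minus the control mean, log2(signal + 16), for the brightest probe set of each of the 65 genes, large subunit left (43) and small subunit right (22), ordered by signal; blue is control, orange induced, and the marker shape gives the repeat. Most genes stay within a narrow band around 0 in both groups, RPL15 has its 3 induced values above its 3 controls, and RPS26 is high in repeat 1 of either group.

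The probe sets fell into a bright set and a dim one, with no mean between 8.23 and 10.08 on the log2 scale. The 78 bright ones, chosen after their values were seen, cover 61 of the 65 genes, with median deposited signals of 2334 to 4579 units per array. The 54 dim ones had median deposited signals of 17.85 to 59.15 units per array, and most of them sit beside a bright probe set of the same gene. RPL31, RPS13, RPL3L and RPS27L had dim probe sets only. RPS20, of the small subunit, had the highest mean of all probe sets tested, and 48 of the 100 brightest probe sets of the array were ribosomal. Signals of different probe sets do not order the amounts of their transcripts.

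The bright probe sets were measured tightly. Their log2 fold changes ran from -0.08 in RPL36 to 0.20 in RPL15, with a median of 0.00996 and a median SE of 0.0667, against 0.194 over all probe sets tested. The median SD between arrays of a group was 0.0659 on the log2 scale, against 0.227 over all probe sets tested. Other bright probe sets were nearly as tight. The 191 outside the ribosomal set with a mean of at least 11.03 had a median SE of 0.0769. For 63 of the 78 the 95% interval of the change lay within 1.2-fold in either direction, and for 77 within 1.5-fold, the exception being RPS26. Of all 132 probe sets, 106 had intervals within 1.5-fold (80.3%, against 46.7% of all probe sets) and 132 within 2-fold (against 90.5%). For the 54 dim ones among them, the 16 units added to each signal understate fold changes. Their intervals therefore do not bound the fold change of the deposited signals. The intervals of the bright probe sets hold for the scale as measured, and 2 further properties of that scale bear on them, given next.

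**Figure D2:**
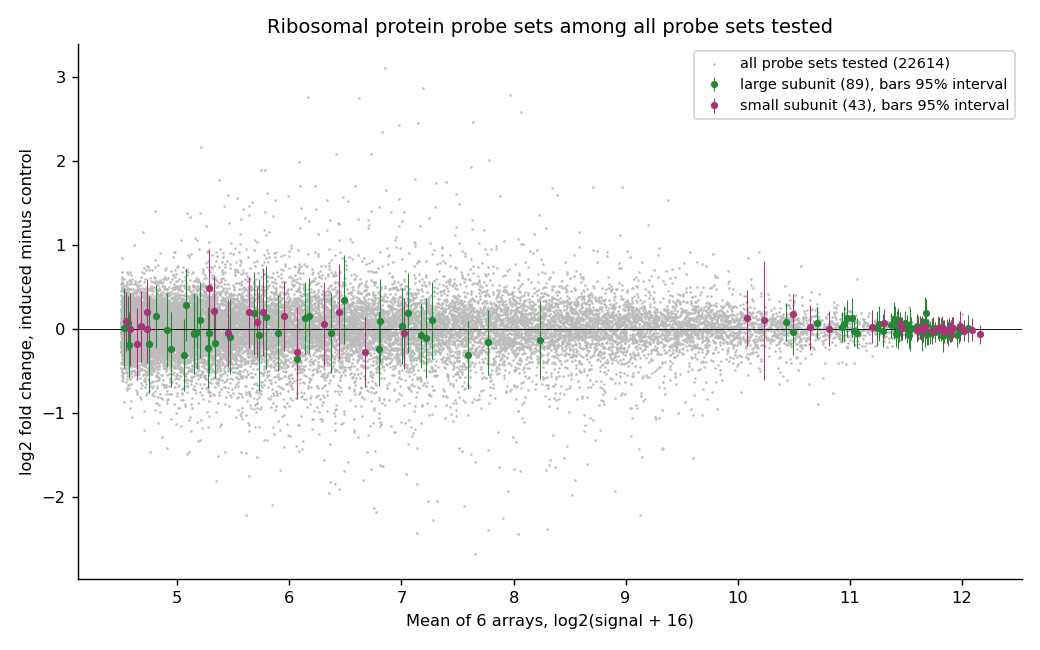
Log2 fold change (induced minus control) against the mean of the 6 arrays, log2(signal + 16); grey points are all 22614 probe sets tested, green and purple points the 89 large-subunit and 43 small-subunit probe sets with 95% intervals. The ribosomal probe sets form a dim scatter below 8.23 and a bright cluster above 10.08, and none lies further than 0.50 from 0.

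First, differences between arrays were smaller at the top of the range. The arrays of repeat 1 exceeded the other 4 by 2.20-fold for the 4658 probe sets with means of 7 to 9, but by 1.78-fold for the bright ribosomal ones and 1.82-fold for all 269 with a mean of at least 11. Whether the changes of bright ribosomal genes are understated for the same reason was not tested. Bright probe sets outside the ribosomal set gave no call either. Of the 191 at or above the members' median of 11.03, 0 passed after adjustment by limma and 10 had an unadjusted p under 0.05. Those shares over all probe sets were 0.0973% and 9.76%, so a count of 0 does not set the 191 apart. The groups did not overlap in 14.7% of the 191, close to the 14.4% of all probe sets. The most positive of them, NET1, an exchange factor for RhoA, had 0.60 (SE 0.125, limma adjusted p = 0.133). The most negative, RGN, had -0.40 (SE 0.158, limma adjusted p = 0.445), and KRT7, an epithelial keratin, had -0.32.

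Second, bringing arrays to a common distribution fixes the values of the top ranks, where the ribosomal probe sets are 25.7% of those at or above 11.03. RPS20, the brightest on 4 arrays, was given the same 12.19 on each of them, and 12.10 in induced samples 1 and 3, a log2 fold change of -0.06. A shift of all ribosomal genes together would be partly removed by this step, so it was also looked for on other scales. Relative to the control mean, the median of the bright probe sets was 0.035, -0.010 and -0.016 in controls 1 to 3 and 0.032, -0.00079 and 0.017 in induced samples 1 to 3. With no normalization it followed the brightness of the arrays, at 0.53, -0.34 and -0.20 against 0.49, -0.29 and -0.45. The median log2 fold change of all member probe sets was -0.08 in that case, -0.06 after centring arrays on their medians and 0.0405 with cyclic loess. Over all probe sets tested the medians on these scales were -0.038, -0.018 and -0.0054. The sign of the members' median thus turned with the scaling. By limma 0 members passed on any of these scales. With no normalization the brightness of the arrays enters the spread within groups, and the lowest adjusted p of a member by limma was 0.99998. That count therefore cannot show whether a small joint shift is present.

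**Figure D3:**
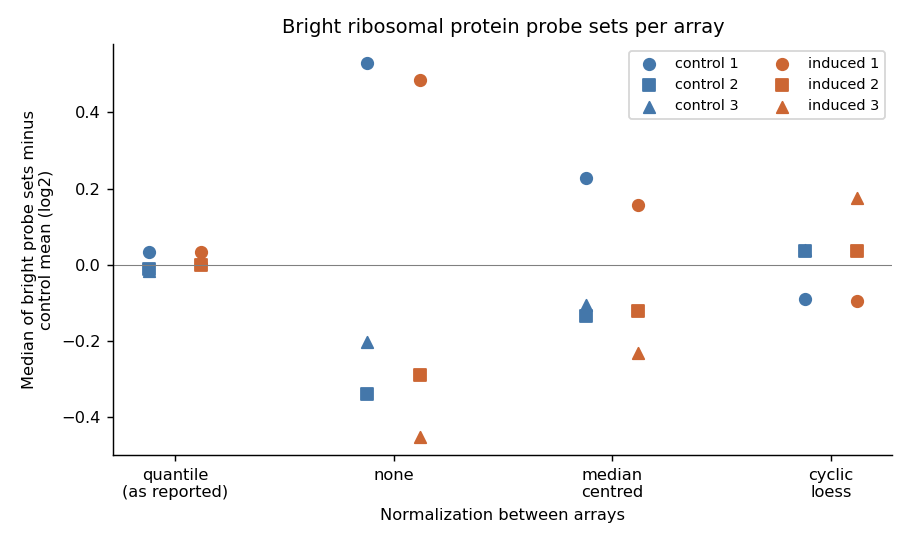
Median over the 78 bright ribosomal probe sets of each array, relative to the control mean (log2), under 4 ways of bringing arrays together; blue is control, orange induced, and the shape gives the repeat. The induced and control arrays overlap under each, and the spread is widest with no normalization, where repeat 1 of both groups stands high.

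A measure that needs no scaling between arrays is the share of an array's summed deposited signal held by the ribosomal probe sets. It was 4.63%, 5.40% and 5.21% in controls 1 to 3 and 4.47%, 5.11% and 5.85% in induced samples 1 to 3, that is 5.08% ± 0.403 and 5.14% ± 0.688 (SD, n = 3 each). The groups overlapped, and the lowest share in either was that of repeat 1, the bright arrays. The subunits were compared by a different ratio, also taken within each array, which does not give the proportion of their transcripts. The median signal of bright small-subunit probe sets over that of large-subunit ones was 1.11, 1.09 and 1.14 in the controls and 1.08, 1.105 and 1.1997 in the induced samples, and the groups overlapped. Median log2 fold changes were -0.00078 over the 89 large-subunit probe sets (43 above 0) and 0.0203 over the 43 small-subunit ones (30 above 0).

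RPL15, a protein of the large subunit, had the lowest p of all members. Its bright probe set read 11.47, 11.64 and 11.65 in controls 1 to 3 and 11.73, 11.76 and 11.86 in induced samples 1 to 3. Every induced value was above every control value. They differed by 0.20 on the log2 scale (SE 0.0713, limma adjusted p = 0.385 over all probe sets), or 1.15-fold with a 95% interval of 1.03 to 1.28. Over the 17 other settings of the fit it ran from 0.11 to 0.24, its unadjusted p was under 0.05 in 10, and its lowest adjusted p was 0.215. These settings reuse the same arrays, and a dim probe set of RPS13 was under 0.05 in 11 of them. Measured against the median of the bright ribosomal probe sets of the same array, the deposited signal of RPL15 was 0.93, 1.03 and 1.04 in the controls and 1.09, 1.11 and 1.23 in the induced samples. That scale was chosen after seeing the data. On it, 3 of the 78 bright probe sets were higher without overlap (RPL15, RPS12 and RPS14) and 1 was lower (RPL32). The share over all probe sets was not computed on that scale. After quantile normalization the bright probe sets of RPS12, RPS14 and RPL32 overlapped between the groups. Conversely, the bright probe sets of RPLP1, RPLP2 and RPL36 overlapped on the relative scale. Ratios of induced to control means on the relative scale ran from 0.939 in RPL36 to 1.14 in RPL15. The 2 dim probe sets of RPL15 had log2 fold changes of 0.15 and -0.18, and the one at -0.18 carries the antisense mark A1 in its name.

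The proteins of the ribosomal stalk recruit the translation GTPases. RPLP0, the base of the stalk and a common reference gene, read 11.04, 10.72 and 10.98 in the controls and 11.03, 10.99 and 11.11 in the induced samples. The groups overlapped, with a log2 fold change of 0.13 (SE 0.0976, and 0.756 as limma's adjusted p). One bright probe set of RPLP1, an acidic stalk protein, read 11.42, 11.32 and 11.39 in the controls and 11.51, 11.49 and 11.46 in the induced samples. Its groups did not overlap, with 0.11 (SE 0.0648, limma adjusted p = 0.663), while its other bright probe set, at 0.12, did, and 2 dim ones had -0.23 and -0.05. RPLP2, its partner, read 11.90, 11.90 and 11.94 against 11.89, 11.89 and 11.85. All 3 induced values were the lower ones, by 0.037 on the log2 scale, and its dim probe set had 0.13.

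RPL5 and RPL11 bind the 5S ribosomal RNA and, when ribosome assembly is disturbed, hold back the p53 antagonist MDM2. RPL5 read 11.72, 11.72 and 11.75 in the controls and 11.76, 11.77 and 11.72 in the induced samples. Its groups overlapped, with a log2 fold change of 0.0194 (95% interval -0.11 to 0.14). The 2 bright probe sets of RPL11 had -0.02 and 0.01. Genes of the p53 response, among them BTG2 at 0.35 and MDM2 at -0.35, gave no call in either direction (0 of 7 measured, median 0.0189). Over all genes 0.376% passed, so 0 of 7 does not set this list apart.

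Of the proteins of the large subunit's core, RPL3, near the peptidyl transferase centre, read 11.09, 11.31 and 11.30 in the controls and 11.12, 11.25 and 11.37 in the induced samples. Repeat 1 was the lowest in both groups and the log2 fold change was 0.0126 (SE 0.0912). RPL38, which in the mouse is needed for translation of a subset of Hox messengers, had 3 bright probe sets with 0.0755, 0.0531 and less than 0.001 in size. RPL13 and RPL36 had the most negative changes among bright large-subunit probe sets, at -0.0731 and -0.0817. RPL13 read 12.02, 11.99 and 11.96 in the controls and 11.82, 11.99 and 11.95 in the induced samples, so that induced sample 1 was low and the other two lay beside the controls. RPL36 read 12.01, 11.83 and 11.79 against 11.93, 11.81 and 11.64 and overlapped, and its second bright probe set had -0.0335 with no overlap between the groups. RPL10A had 0.14 and -0.0167 in its 2 bright probe sets.

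In the small subunit, RPS6, the substrate of S6 kinase and a standard readout of mTOR activity at the protein level, read 11.97, 12.10 and 12.01 in the controls and 11.97, 12.02 and 12.02 in the induced samples. The groups overlapped, with a log2 fold change of -0.0195 (95% interval -0.145 to 0.106). RPS3, which lines the messenger's entry channel, had 0.0788 (SE 0.0746). RPS27A, made as a fusion with ubiquitin, had -0.0196 (SE 0.0706). RPS15 read 10.58, 10.24 and 10.38 in the controls and 10.69, 10.51 and 10.54 in the induced samples, and overlapped through control 1, with 0.18 (SE 0.109, limma adjusted p = 0.679). RPSAP58 and RPS4Y1, outside the rule by name, carry RPSA and RPS4X as RefSeq synonyms. They had 0.0293 and 0.0933 and overlapped between the groups. No probe set carried the symbol RPL10, RPS19 or RPSA.

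RPS26 varied more than any other bright member, and its high values were those of repeat 1 in both groups. Its values were 10.99, 9.60 and 9.94 in controls 1 to 3 and 10.75, 10.17 and 9.94 in induced samples 1 to 3. Repeats 2 and 3 lay well below repeat 1 in either group. In deposited signals these are 3236, 578 and 844 units against 2671, 949 and 618, so repeat 1 exceeded the mean of the others 4.55-fold in the controls and 3.41-fold in the induced samples. For the other 77 bright probe sets that ratio ran from 1.41 to 2.37 and from 1.32 to 2.35. Between the groups RPS26 differed by 0.11 (SE 0.318), with a 95% interval from 0.66-fold to 1.76-fold, the widest of the bright set. Its within-group SD was 0.591 on the log2 scale, and the next largest of the bright set was 0.235 in RPL21. On the normalized scale RPS28 went the other way, with repeat 1 the lowest in both groups (9.71 against 10.11 and 10.20 in the controls, 9.93 against 10.23 and 10.28 in the induced samples). In deposited signals its repeat 1 exceeded the mean of the others 1.52-fold and 1.77-fold, inside the ranges just given. Relative to the bright ribosomal probe sets of the same array, its lowest induced value was that of induced sample 3 (0.34). The part of array brightness in the values of RPS26 and RPS28 was not tested. The probe set of RPS26 is of a kind that can match transcripts of several genes.

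**Figure D4:**
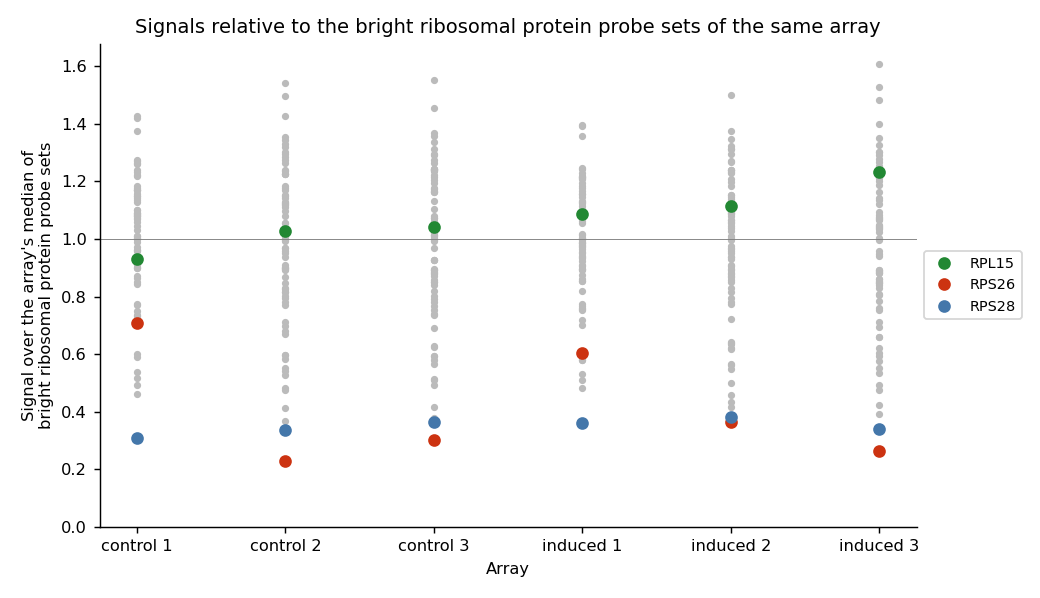
Deposited signal of each of the 78 bright ribosomal probe sets divided by their median on the same array (linear scale, no unit), for the 6 arrays; grey points are all others, coloured points RPL15, RPS26 and RPS28. RPS26 stands at 0.71 and 0.60 in repeat 1 of the controls and the induced samples and between 0.23 and 0.36 in the other 4 arrays, while RPL15 goes from 0.93 to 1.04 in the controls to 1.09 to 1.23 in the induced samples.

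Several ribosomal proteins have a second gene, in some cases used in particular tissues of mammals, and 6 members carry the name of a second gene. RPL22L1, the paralog of RPL22, had log2 fold changes of 0.0843, 0.28 and 0.0763 in its 3 probe sets, and RPL22 itself had 0.0657. The bright probe set of RPL22L1 read 10.52, 10.39 and 10.25 in the controls and 10.54, 10.42 and 10.46 in the induced samples, with overlap. RPL7L1 had -0.0463 in its bright and -0.24 in its dim probe set. RPL26L1 and RPL39L had 0.0025 and 0.0014, and RefSeq lists the plain names RPL26 and RPL39 as their synonyms. RPL3L, the striated muscle form in mammals, was near the floor, at 1.2 to 24.2 units on the 6 arrays. RPS27L, a p53 target in human cells, read 6.96, 6.95 and 7.23 against 7.18, 6.96 and 6.86, a difference of -0.046 (SE 0.19).

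The dim probe sets were less precise and less uniform. Their log2 fold changes ran from -0.35 to 0.50 with a median of -0.0016, 27 above and 27 below 0, and a median SE of 0.2. The largest was a probe set of RPS13, which read 4.80, 4.91 and 5.41 in the controls and 5.68, 5.53 and 5.39 in the induced samples. It is among the 10 member probe sets whose names carry the antisense mark A1, and which strand these detect was not tested. The groups overlapped through control 3, with 0.50 (SE 0.205, limma adjusted p = 0.459), and the other 3 kept probe sets of RPS13 had values from -0.17 to 0.0085. The most negative was one of RPL10A at -0.35 (SE 0.217), which read 6.49, 6.04 and 6.18 against 6.04, 5.57 and 6.07, and overlapped. Dim probe sets of RPL35A and RPL21 had -0.31 and -0.30, that of RPL21 with no overlap (7.97, 7.56 and 7.71 against 7.36, 7.55 and 7.42). Those of RPS14 and RPS12 had -0.27 each, and one of RPL24 had 0.35. None had an adjusted p by limma under 0.459.

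Probe sets of the same gene often differed in sign. Of 32 genes with more than 1 kept probe set, 24 did so. The share over all genes with several probe sets was not computed, so the count does not set the members apart. Most changes were small beside their SE, and signs of such values carry little information. The 0.50 of RPS13, the -0.18 of RPL15 and the -0.17 of RPL29 given next are from probe sets with the antisense mark A1. The widest ranges were those of RPS13 (-0.17 to 0.50), RPL24 (-0.18 to 0.35), RPL10A (-0.35 to 0.14), RPS14 (-0.27 to 0.21), RPS12 (-0.27 to 0.21), RPL21 (-0.30 to 0.16), RPL15 (-0.18 to 0.20), RPLP1 (-0.23 to 0.12) and RPL29 (-0.17 to 0.14). RPL9, RPL12, RPL13, RPL19, RPL23, RPL27, RPL27A, RPL38, RPLP2 and RPS25 spanned 0.0821 to 0.23, and RPL11, RPL31, RPS7, RPS15A and RPS21 spanned 0.0244 to 0.0724. Bright probe sets alone lay closer together. The median spread within the 14 genes that have more than 1 was 0.0341, and the widest was 0.16 in RPL10A. The 2 of RPL4 had 0.0432 and 0.0436.

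Other genes of protein synthesis, taken by their brightest probe set and tested over all genes, gave no call by limma either. Only 0.376% of all genes passed, so a count of 0 does not set lists of this size apart. Of 19 measured genes whose messengers also start with an oligopyrimidine tract, 0 passed, 0 had an unadjusted p under 0.05, and the median log2 fold change was 0.0538, against 0.0163 over all genes. At an unadjusted p under 0.05 by limma, 568 of all 10118 genes were higher and 609 lower. EIF3H and EIF3F, subunits of initiation factor 3, had 0.12 and 0.15 without overlap, and EEF1A1, the elongation factor that brings aminoacyl-tRNA, had 0.0401. RACK1, a scaffold on the small subunit, had -0.0751. Of 66 proteins of the mitochondrial ribosome 0 passed (median 0.0629, 46 above 0). MRPS23 of the mitochondrial small subunit read 8.66, 8.66 and 9.01 in the controls and 9.22, 9.61 and 9.55 in the induced samples, all above the controls, with 0.68 (SE 0.162, limma adjusted p = 0.128).

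Factors that build ribosomes were also without a call. Of 50 measured genes 0 passed by limma, 1 had an unadjusted p under 0.05, and the median was 0.0521, with 30 above 0. Of all 10118 genes 0.376% passed, and at the unadjusted threshold 568 were higher and 609 lower. The counts therefore do not set this list apart. The gene under the unadjusted threshold was PNO1, which acts in maturation of the small subunit. It read 9.58, 9.09 and 8.74 in the controls and 9.22, 7.53 and 7.60 in the induced samples, so that induced samples 2 and 3 were low and induced sample 1 lay among the controls, with -1.02 (SE 0.405, adjusted p = 0.37). SBDS, which frees the large subunit for joining, had -0.28 and WDR75, a factor of early ribosomal RNA processing, 0.20. Of 10 genes of RNA polymerase I and its factors 0 passed, with RRN3 at 0.14 and TWISTNB, a polymerase subunit, at 0.18.

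Of 15 growth control genes 0 passed by limma and 2 had an unadjusted p under 0.05, in opposite directions. Over all 10118 genes 568 were higher and 609 lower at that unadjusted threshold, so the count does not set this list apart. MYCN read 8.12, 8.58 and 8.95 in the controls and 9.52, 9.79 and 8.70 in the induced samples, with induced sample 3 among the controls and a difference of 0.78 (SE 0.287, adjusted p = 0.328). MYC read 8.30, 8.20 and 8.26 in the controls and 7.86, 7.52 and 7.97 in the induced samples, all below the controls, with -0.47 (SE 0.176, adjusted p = 0.343). MTOR had -0.0442, RPS6KB1, the kinase of RPS6, -0.17 and LARP1, which binds the oligopyrimidine tract, 0.0315. In the same comparison 3 of 14 blood and endothelial genes passed, TAL1 at -1.74, KDR at -1.84 and LMO2 at -2.18 (limma adjusted p = 0.0112, 0.0112 and 0.0162). Among the other tissue lists 1 of 7 preplacodal genes passed, and 0 of 18 of yolk sac endoderm and 0 of 9 epiblast genes did. Over all genes 0.376% passed. Of 10 measured genes of the grafted head mesoderm 1 passed, the cardiac factor NKX2-5, which rose by 1.90 (adjusted p = 0.0115), while 5 lay above 0 and 5 below, from -0.91 to 1.90 with a median of -0.0361. In induced samples 1 to 3 the blood genes lay on average at -1.12, -1.61 and -0.80 against the controls, and the ribosomal genes at 0.0405, -0.0019 and 0.0056. The part of the tissue markers in the values of the ribosomal genes was not tested.

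**Figure D5:**
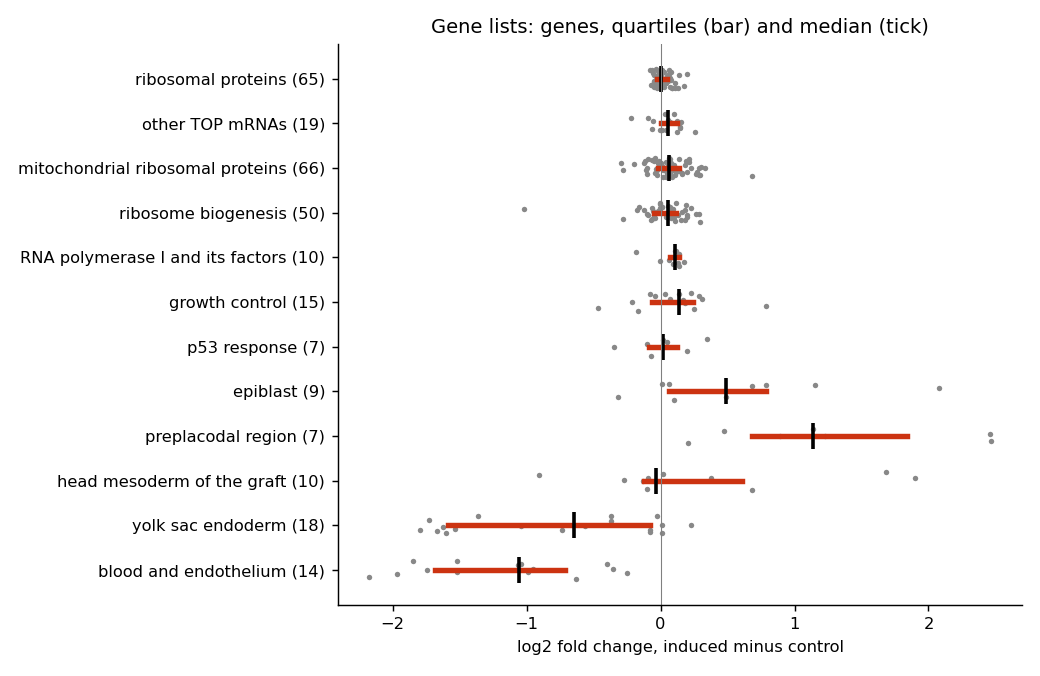
Log2 fold change (induced minus control) of the genes of 12 lists, each gene by its brightest probe set; red bars span the quartiles, black ticks mark the median, and the number of measured genes stands in brackets. The 65 ribosomal protein genes lie between -0.08 and 0.20, with quartiles of -0.03 and 0.05, while the preplacodal list lies above 0 and the blood and endothelium list below.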

How the data were processed

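Total RNA of 3 induced and 3 control samples was labelled with biotin and hybridized to 1 Affymetrix array each, per the labels' protocols. The deposited values are linear intensities, 1 for each probe set on each array. MAS5 is named in the submitters' processing notes, while its version and scaling target are not stated in the sources used here. Arrays were not at a common level. From these intensities, log2(signal + 16) was computed and quantile normalized, and probe sets with a mean below the 40th percentile (4.5) were left out. The groups were tested by limma 3.58.1 under R 4.3.3 (lmFit, eBayes with trend, group the only term, two-sided) and Benjamini-Hochberg adjustment over all 22614 probe sets, or over 10118 genes taken by their brightest probe set. The pipeline was tested on simulated data. Fold changes on this scale understate those of dim probe sets. With 3 against 3 arrays an exact permutation test of 1 gene cannot go below 0.1.

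Members were picked by the symbol in GEO's platform annotation (27166 probe sets with 1 symbol). For 26851 of these the Entrez number has a RefSeq symbol, which was used as the gene name. It differed from the platform symbol in 0 of the members' probe sets. Of the members' 138 probe sets, 67 are of kinds (a, s, x) that can match several transcripts, and 10 carry the antisense mark A1 in their names. Members and lists were chosen with earlier results of these data known. Members were described by the 10 lowest p in each direction, by genes of known role and paralogs, and by disagreement of probe sets, other lists by up to 3 genes with the lowest p. RPS26, RPS28, RPL36, NET1, RGN, KRT7 and further genes given with a single value were named after their values were seen. Alternatives covered scaling, pseudocount, filter, variance trend, repeat number as a block, left-out arrays and kinds of probe set.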

Additional observations from a re-analysis of the deposited data

How the results depend on the processing

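By limma, 0 ribosomal protein probe sets and 0 ribosomal protein genes passed under any of the 19 alternative settings computed for them. The 6 runs that each left out 1 array are included (lowest and highest count 0). The lowest adjusted p by limma was 0.215 for a probe set and 0.156 for a gene, both with the repeat number as a block. That block gave 0 called and changed no call on the ribosomal genes. The numbers were not taken to pair the samples, since nothing in the labels says that equal numbers share hosts. The deviations of same-numbered samples from their group means correlated at 0.55 for repeat 1, the bright arrays, and at -0.15 and 0.0695 for repeats 2 and 3. The medians moved with the scaling by more than their SD between arrays. With no normalization, with or without the block, they were -0.07991 for all ribosomal probe sets, -0.0912 for the large and -0.066 for the small subunit, and -0.08635 for the bright ones. With arrays centred on their median they were -0.05995, -0.07124, -0.04607 and -0.0664. With cyclic loess the small-subunit median was 0.0556 and the bright one 0.04368. Over all probe sets tested the medians were -0.038 with no normalization, -0.018 after centring and -0.0054 with cyclic loess. Without 1 array the ribosomal medians ran from -0.0033 to 0.0289 for all members, -0.0176 to 0.0272 for the large subunit, 0.0096 to 0.0298 for the small subunit and -0.00089 to 0.0191 for the bright ones. The cause was not tested. Of 736 values of the 44 described probe sets under alternatives, 73 had another sign than reported, none of them called. Over all probe sets the count called was 22, against 12 with no normalization, 587 with the block on such values, 5 in the 4 dimmer arrays, and 35, 12 and 10 on leaving out control 1, 2 or 3 and 5, 2 and 110 on leaving out induced sample 1, 2 or 3.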
